A study of Mustela putorius furo with 10 samples.

Results

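The p53 regulators MDM2, MDM4, PPM1D and ATM and the p53 targets CDKN1A, GADD45A, SESN1, SESN2 and TP53INP1 were followed in peripheral blood mononuclear cells (PBMC) of ferrets kept in the cold. These 9 genes were chosen by name, and their target sequences were found through the RefSeq ferret gene name of the accession that each array probe carries. Of the 9 genes, 8 had a target sequence on the array, 11 sequences in all. A sequence counted as measured when at least 1 of its probes had ferret signal well above background on at least 4 of the 10 arrays, and 10 sequences of 7 genes passed, out of 32400 measured sequences in the series. PPM1D, a phosphatase that removes activating phosphates from p53 and ATM, had no sequence under its name and was not analysed here. SESN2, a stress-induced inhibitor of mTORC1 signalling, was not well above background: 9 of its 120 spots over the 10 arrays carried that flag and its probes met the detection rule on 0 arrays.

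Male ferrets 3 months old were kept at 22 °C (control, 6 arrays) or at 4 °C for 1 week (cold, 4 arrays), with 7 animals per group in the experiment. Cold animals were housed individually, and all animals received ketamine and medetomidine before blood was drawn from the heart. PBMC RNA of each animal was labelled with the green dye Cy3 and hybridised to its own array together with a red (Cy5) reference pool, which was made of RNA from PBMC and other ferret tissues. Values below are therefore log2 ratios of ferret over reference, normalized within each array. A value of 0 means the typical ratio of spots of like brightness on that array, not equal amounts in ferret and pool. A difference is the mean of cold minus the mean of control arrays.

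The protein p53 is a transcription factor that is kept low in resting cells by MDM2, a ubiquitin ligase, and by the related MDM4, which binds p53 and blocks its activity. DNA damage and other stresses activate kinases such as ATM, which release p53 from this control. It then switches on genes that stop the cell cycle (CDKN1A, which encodes the inhibitor p21), act in stress and repair (GADD45A), restrain growth signalling (SESN1 and SESN2), promote autophagy and cell death (TP53INP1), or close the loop by restoring inhibition (MDM2 and PPM1D). In blood, CDKN1A and GADD45A are also induced by stress and differentiation signals that do not pass through p53.

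Between 50.4 and 63.4% of spots on control arrays, and 58.0 to 61.1% on cold arrays, had ferret signal well above background. Shares in the reference channel were less even, with 27.0 to 54.8% on control and 40.5 to 64.0% on cold arrays. Marker sequences of 7 blood cell types were set beside the groups. By limma none had a p under 0.05 after adjustment over all sequences, and 8.59% of all sequences had an unadjusted p under 0.01. Of 12 monocyte sequences (8 of 10 listed genes), 7 (58.3%) were higher in cold at that unadjusted threshold, and the mean log2 ratio of the list was -0.04 to 0.47 on control and 0.45 to 1.14 on cold arrays. The 2 sequences of CD163 in this list went the other way, with log2 differences of -0.61 and -0.63. The 9 neutrophil sequences (7 of 12 genes, 3 sequences or 33.3% higher at that threshold) averaged 0.62 to 1.29 on control and 1.40 to 2.02 on cold arrays, and 4 of 12 platelet sequences (33.3%, 7 of 10 genes) were higher, with averages of -0.02 to 1.53 and 0.97 to 1.97. Of the 11 T cell sequences (9 of 12 genes), 10 were lower and 1 higher in cold, beside 52.5% of all sequences lower. Their median log2 difference was -0.56, and 1 (9.09%) was lower at that unadjusted threshold, near the share of all sequences. They averaged 0.14 to 0.45 on control and -0.68 to 0.18 on cold arrays. Of the 5 red cell sequences (5 of 10 genes), 4 were lower, 1 (20%) of them at that threshold, and SPTB was higher (0.14). HBM (-2.56) and ALAS2 (-1.12) had the largest differences of that list. Its averages were -0.05 to 0.82 on control and -0.79 to -0.18 on cold arrays. None of 13 B cell and 4 NK cell sequences passed the unadjusted threshold. Defining markers among those not measured were MS4A1 and PAX5 of B cells and PF4 and PPBP of platelets. In such bulk samples, fewer cells of a type and less RNA per cell cannot be told apart, and the part of cell make-up in the values below was not tested.

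None of the 10 sequences differed between cold and control once p-values from limma were adjusted over all 32400 sequences by the Benjamini-Hochberg method (threshold 0.05), and the share called among all sequences was 0%. At the unadjusted threshold of 0.01 that the methods used, 0 of the 10 passed against 8.59% of all sequences, and at unadjusted p under 0.05, 3 passed against 24.6%. The methods' t-test called 0 after adjustment (0 of all sequences), 0 at 0.01 (6.46% of all) and 1 at 0.05 (21.7% of all). The 3 sequences under 0.05 were both CDKN1A sequences, higher in cold, and 1 of the SESN1 sequences, lower in cold. The groups overlapped for all 10, while 5.1% of all sequences had groups that did not overlap. Over the 10 sequences, 4 were higher and 6 lower in cold, with a median log2 difference of -0.02 beside -0.01 over all sequences. Sequences of 1 gene share its transcripts and are not separate evidence.

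**Figure D1:**
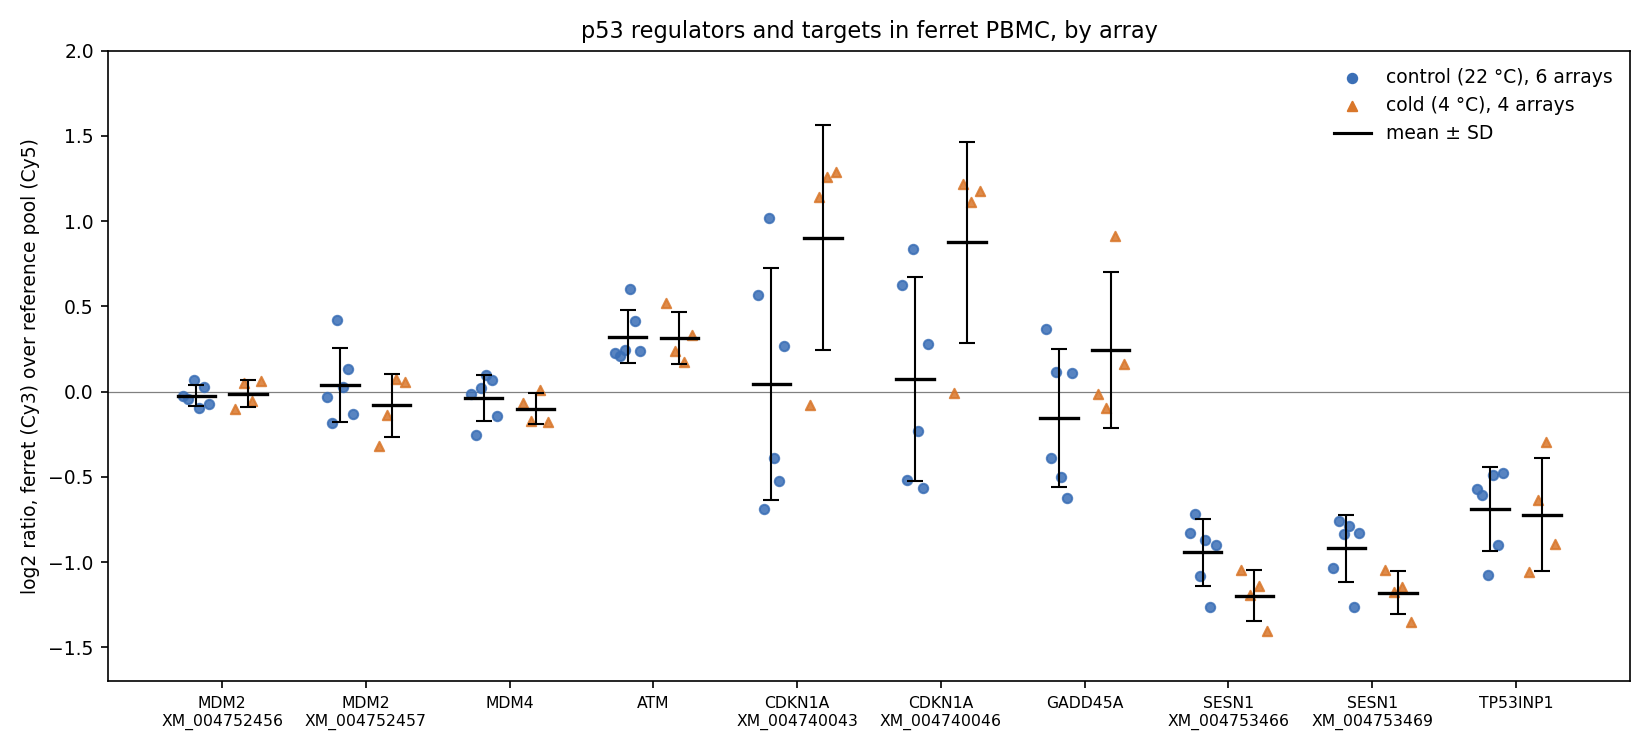
Log2 ratio of ferret RNA (Cy3) over the reference pool (Cy5) for the 10 measured sequences, as loess-normalized values. Each circle is 1 of 6 control arrays, each triangle 1 of 4 cold arrays, and bars show mean ± SD. CDKN1A spread most widely, from -0.69 to 1.29 on the log2 scale for XM_004740043, and the groups overlapped for every sequence; heights are relative to the pool and are not comparable between genes.

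Among the regulators, MDM4 (XM_004756399) was measured at -0.26, 0.0047 and 0.10 as the lowest, median and highest control array. Its cold arrays gave -0.07, -0.17, 0.01 and -0.18. All cold values lay within the control range, and the control mean was -0.04 ± 0.14 (SD, n = 6) beside a cold mean of -0.10 ± 0.09 (SD, n = 4). The difference was -0.06 (SE 0.09, 95% interval -0.26 to 0.13), with an adjusted p of 0.695 by limma and an exact two-sided permutation p of 0.41. MDM4 is among the genes the study named from these same arrays, so its value here is not independent evidence. In the table of log2 values that the authors deposited, its difference was -0.21, with an unadjusted p of 0.0643 and an adjusted p of 0.322 by the methods' t-test, and 0.21 and 0.362 by limma. Its 4 probes did not run the same way, with log2 differences of -0.18, 0.09, -0.04 and -0.12.

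MDM2 was represented by 2 sequences. XM_004752456 ranged from -0.10 to 0.07 in control (median -0.03) and measured -0.10, 0.05, -0.06 and 0.06 in cold. The groups overlapped, and the log2 difference was 0.01 (SE 0.07, 95% interval -0.14 to 0.17, adjusted p 0.938 by limma). XM_004752457 ranged from -0.18 to 0.42 in control (median -0.0007) and gave -0.32, -0.14, 0.08 and 0.06 in cold, a log2 difference of -0.12 (SE 0.13, 95% interval -0.40 to 0.16, adjusted p 0.592 by limma). Only cold replicate 1 was below every control array for either sequence.

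ATM (XM_004764400), the kinase that signals DNA double-strand breaks, ranged from 0.21 to 0.60 in control (median 0.24). In cold it measured 0.52, 0.24, 0.17 and 0.33, so the ranges overlapped and the log2 difference was -0.0082 (SE 0.10, 95% interval -0.24 to 0.22, adjusted p 0.971 by limma). It was the dimmest of the measured members in Cy3, with a median intensity over its probes of 170 to 339 per array. Of its 4 probes, 2 were well above background on all 10 arrays. The others were so on 8 (5 control and 3 cold) and on 5 (4 control and 1 cold).

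MDM4 and ATM were lower in cold when the ferret channel was read on its own. With Cy3 alone, quantile normalized, MDM4 had a log2 intensity of 9.05, 9.18 and 9.51 on the lowest, median and highest control array. Its cold arrays gave 8.87, 8.92, 9.03 and 8.92, all below every control array. The log2 difference was -0.28 (SE 0.10, 95% interval -0.50 to -0.07), with an exact permutation p of 0.0143 and an adjusted p of 0.115 by limma. ATM in Cy3 alone measured 8.30, 8.42 and 8.89 in control and 8.24, 7.96, 8.03 and 8.29 in cold, again without overlap. Its log2 difference was -0.34 (SE 0.12), with an exact permutation p of 0.00952 and an adjusted p of 0.129 by limma. These 2 were the only members without overlap on this scale, against 6.98% of all sequences, and 0 of 10 members passed the adjusted threshold there, against 2.84% of all.

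Scaled instead to the 75th percentile of each array, without background subtraction, Cy3 alone gave log2 differences of -0.36 (SE 0.10) for MDM4 and -0.48 (SE 0.12) for ATM. Adjusted p was 0.0488 and 0.0431 by limma, so that 2 of 10 members passed, against 7.7% of all sequences. This scaling, which was added after the data had been seen, shifted the median of all sequences by -0.14, and relative to that median the differences were -0.22 for MDM4 and -0.35 for ATM. Leaving out each array in turn kept the adjusted p of MDM4 under 0.05 only without control replicate 5 (0.0499), with a highest value of 0.107. That of ATM stayed under it in 3 of 10 cases, without control replicate 5 (0.0474), control replicate 6 (0.0331) or cold replicate 1 (0.0329), with a highest value of 0.0987.

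In the reference channel, which holds the same pool on every array, the quantile-normalized log2 difference was -0.09 (SE 0.07) for MDM4 and -0.08 (SE 0.05) for ATM, with adjusted p of 0.694 and 0.668 by limma. The pool was dim for both genes. Before normalization, median Cy5 intensity over the MDM4 probes was 54.9 to 126 on control and 68.7 to 275 on cold arrays. Its 4 probes were well above background in Cy5 on 8, 5, 9 and 5 arrays. For ATM that intensity was 36.4 to 53.6 on control and 44.3 to 79.9 on cold arrays, and its probes passed on 3, 0, 0 and 9 arrays. The part of this dim denominator in the gap between ratio and Cy3 was not tested.

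**Figure D2:**
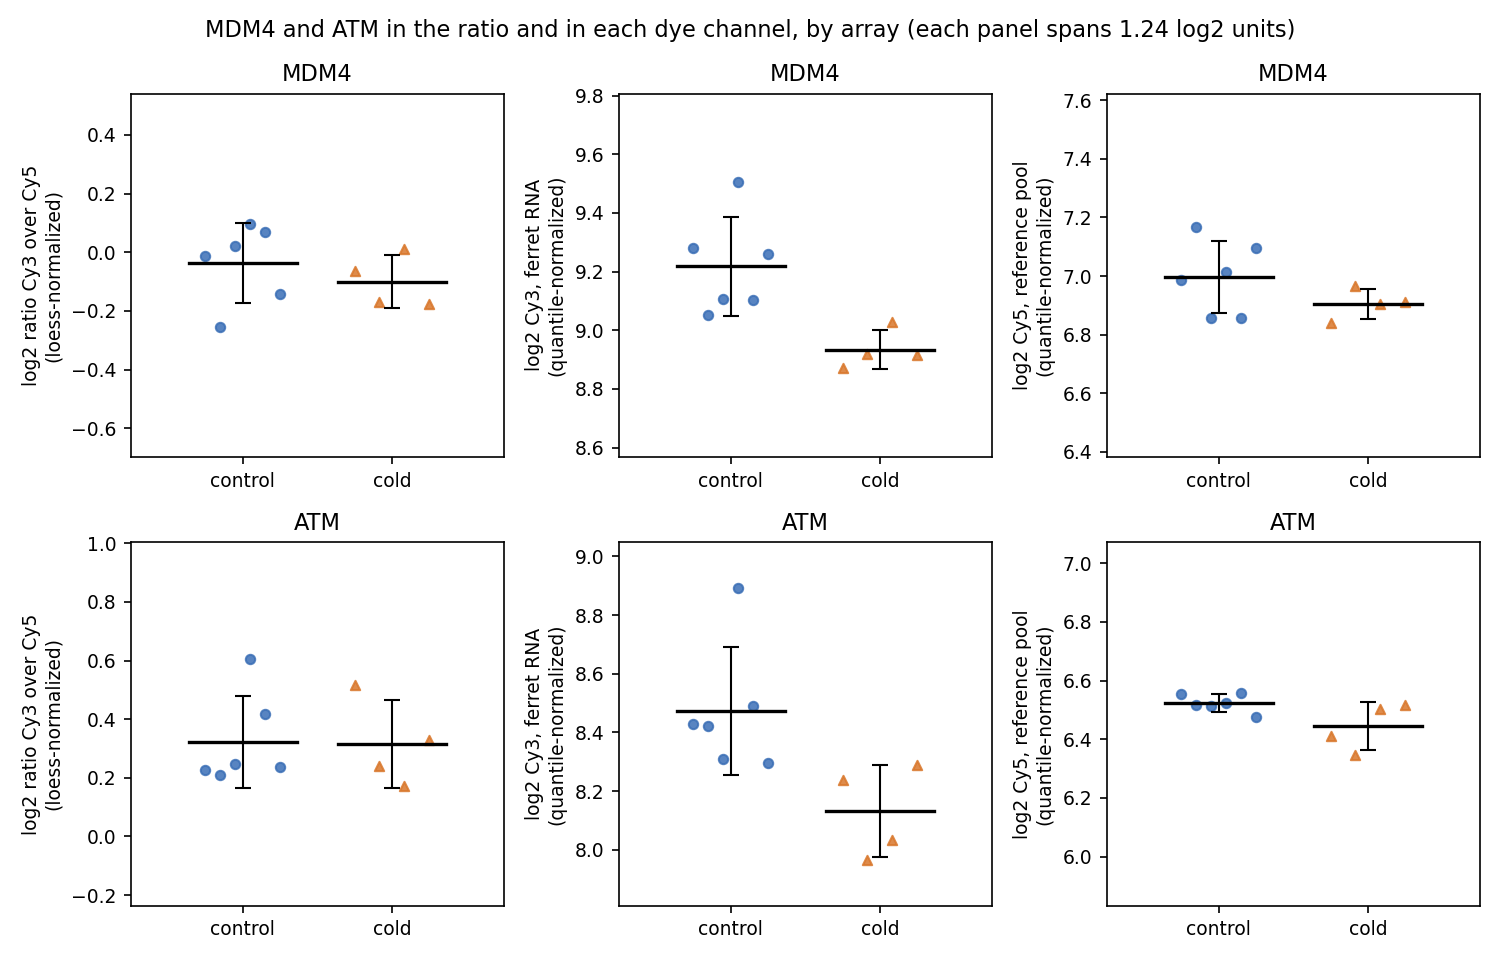
MDM4 (top) and ATM (bottom) as log2 ratio, as log2 Cy3 (ferret RNA) and as log2 Cy5 (reference pool), in 6 control and 4 cold arrays, with mean ± SD. The groups were apart in Cy3 alone, where MDM4 was 9.05 or more in control and 9.03 or less in cold, and overlapped in the ratio and in the pool.

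Among 8340 other named genes, those whose log2 ratios had the highest Pearson correlation with MDM4 over the 10 arrays were ATAD2B (r = 0.91), BIRC6 (r = 0.90), PAPOLG (r = 0.90), CEP70 (r = 0.89) and ABI1 (r = 0.89). These values only describe the top of a ranking of 8340 genes over 10 arrays that share the pool and its normalization, and nothing is read from them.

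Among the targets, CDKN1A had the largest log2 difference of the members and the widest spread. XM_004740043 measured -0.69, -0.06 and 1.02 as the lowest, median and highest control array. Its cold arrays gave -0.08, 1.14, 1.26 and 1.29. Cold replicates 2, 3 and 4 were above every control array, while cold replicate 1 lay in the middle of the control range. The control mean was 0.04 ± 0.68 (SD, n = 6) and the cold mean 0.90 ± 0.66 (SD, n = 4). The difference was 0.86 (SE 0.37, 95% interval 0.04 to 1.68), a fold of 1.82, with an unadjusted p of 0.0411 and an adjusted p of 0.187 by limma, and the exact permutation p was 0.0905. Without cold replicate 1 the log2 difference was 1.19, with an unadjusted p of 0.00645 and an adjusted p of 0.139 by limma. Leaving out each array in turn gave 0.71 to 1.19, and in 6 of 10 cases (control replicate 2, 4 or 5, cold replicate 2, 3 or 4) the unadjusted p was no longer under 0.05, with a highest value of 0.109.

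The second CDKN1A sequence, XM_004740046, gave nearly the same values. It ranged from -0.57 to 0.84 in control (median 0.03) and measured -0.01, 1.22, 1.11 and 1.18 in cold. On no array did the log2 ratios of both sequences differ by more than 0.18. The log2 difference was 0.80 (SE 0.33, 95% interval 0.08 to 1.53, unadjusted p 0.0332 and adjusted p 0.171 by limma, exact permutation p 0.0762), and without cold replicate 1 it was 1.10 (unadjusted p 0.00495, adjusted p 0.129). With each array left out it ranged from 0.68 to 1.10, and the same 6 arrays took the unadjusted p to 0.0622 or more. With the replicate block the unadjusted p was 0.104 and 0.11. All 8 probes of both sequences were higher in cold, by 0.66 to 1.01 on the log2 scale. The direction held in Cy3 alone (0.89 and 0.91) but not when the ratios were centred on the median of each array in place of loess, where the values were -0.04 and -0.09, or 0.39 and 0.34 relative to the median of all sequences (-0.43). Cold replicate 1 had the brightest reference channel of all arrays, with a median Cy5 intensity of 151.5 (the next was 98) and 64.0% of spots well above background, and the part of this in its ratios was not tested. Its averages lay inside the range of the other cold arrays for 5 of the 7 marker lists and above it for T cells (0.18) and B cells (0.80).

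GADD45A (XM_004762981) ranged from -0.63 to 0.37 in control (median -0.14). Its cold arrays measured -0.01, -0.09, 0.91 and 0.16, so only cold replicate 3 was above every control array. The log2 difference was 0.40 (SE 0.24, 95% interval -0.13 to 0.92), with an adjusted p of 0.324 by limma and an exact permutation p of 0.186. Without cold replicate 3 it was 0.17. Its 4 probes were all higher in cold, but unevenly, by 0.11 to 0.65.

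Both SESN1 sequences were lower in cold. SESN1 encodes sestrin 1, a p53-induced protein that restrains mTORC1. XM_004753466 ranged from -1.27 to -0.72 in control (median -0.88) and measured -1.05, -1.19, -1.14 and -1.41 in cold. XM_004753469 ranged from -1.26 to -0.76 (median -0.83) and measured -1.05, -1.18, -1.14 and -1.35. Control replicate 5 lay among the cold arrays for both and control replicate 3 for the first, and only cold replicate 4 was below every control array. The log2 differences were -0.25 (SE 0.12, 95% interval -0.51 to 0.0013, adjusted p 0.205 by limma) and -0.26 (SE 0.11, 95% interval -0.51 to -0.01, adjusted p 0.185 by limma), with exact permutation p of 0.0762 and 0.0571. Without control replicate 5 the second was -0.33, with an unadjusted p of 0.00513 and an adjusted p of 0.0641. Without cold replicate 4 it was -0.20, with an unadjusted p of 0.122, and in 7 of the 10 cases with 1 array left out (all but control replicate 1 or 5 or cold replicate 1) the unadjusted p was not under 0.05. All 8 SESN1 probes were lower in cold, by 0.08 to 0.41 on the log2 scale.

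TP53INP1 (XM_004768540) ranged from -1.08 to -0.48 in control (median -0.59) and measured -1.06, -0.64, -0.30 and -0.90 in cold. The cold values spanned nearly the whole control range, and cold replicate 3 exceeded it. The log2 difference was -0.03 (SE 0.17, 95% interval -0.40 to 0.33, adjusted p 0.919 by limma). Among the measured targets, then, the differences of CDKN1A and GADD45A were above 0 and those of SESN1 below, none past the adjusted threshold.

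**Figure D3:**
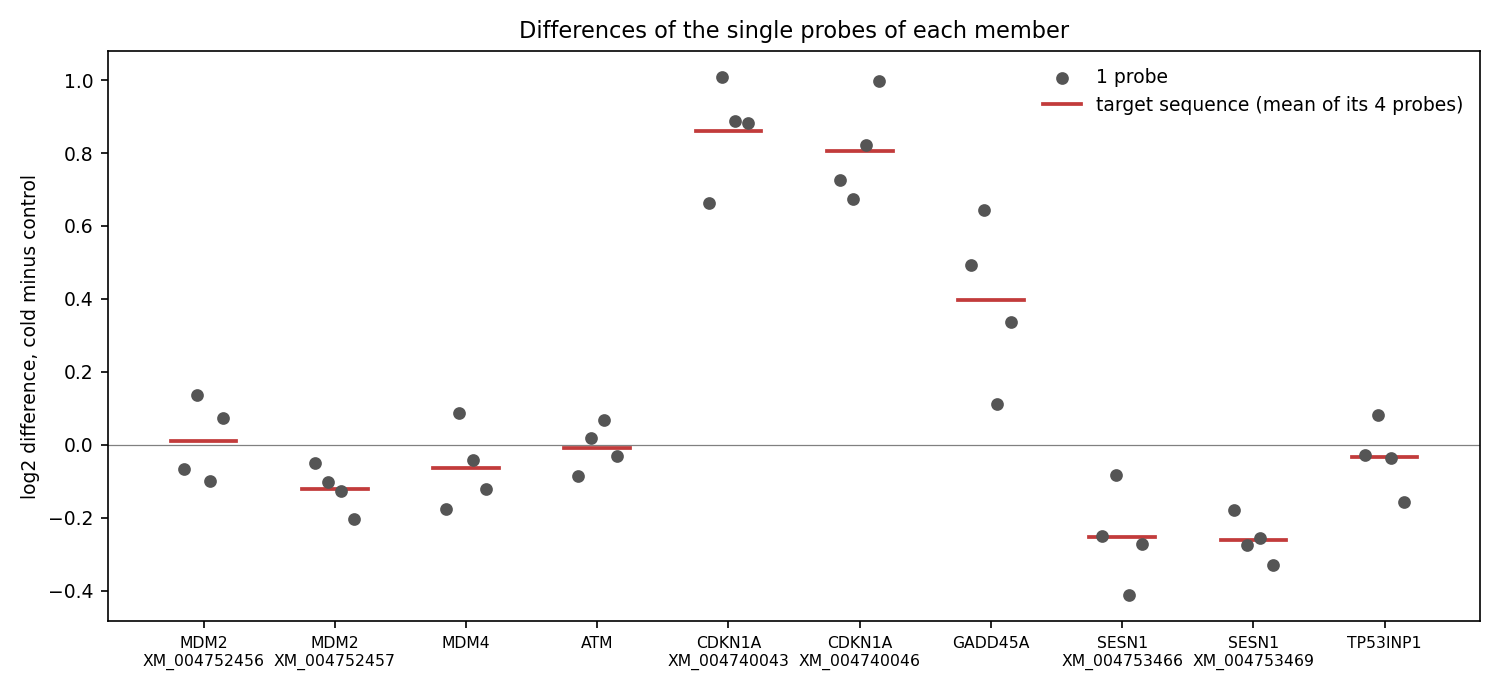
Log2 difference of cold minus control for each single probe (grey points, 4 a sequence) and for the target sequence (red line). The probes of CDKN1A and GADD45A were all above 0 and those of SESN1 all below 0, while those of MDM4, ATM, TP53INP1 and MDM2 XM_004752456 lay on both sides.

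The way in which the dyes were combined moved several members. MDM4 was lower in cold under all 14 alternatives, with log2 differences from -0.57 to -0.05. The lowest came from median centring and was -0.14 relative to the median of all sequences. SESN1 was lower under all 14 as well, from -1.02 to -0.16. Relative to the median of all sequences, its sequences differed by -0.58 and -0.59 under median centring, by -0.059 and -0.064 with the scanner software's intensities and by -0.043 and -0.047 with Cy3 scaled by the 75th percentile. CDKN1A ranged from -0.09 to 1.05 and GADD45A from -0.52 to 0.56 over the alternatives, and the sign of MDM2, TP53INP1 and ATM varied.

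**Figure D4:**
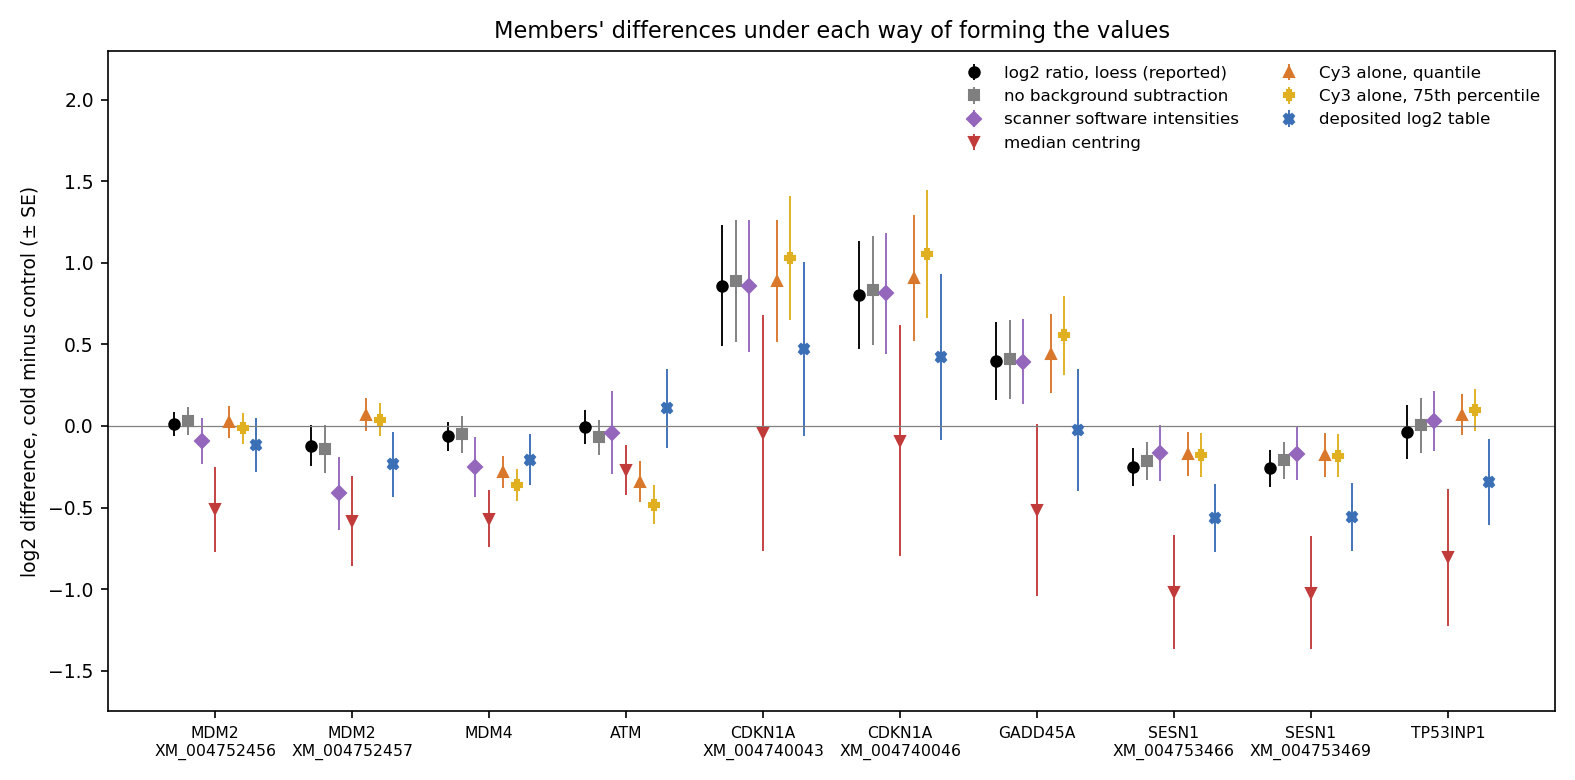
Log2 difference of cold minus control (± SE) of the 10 sequences under 7 ways of forming the values from the same arrays. Median centring, under which the median difference over all sequences was -0.43, lay lowest for 9 of the 10 sequences, and MDM4 and SESN1 were below 0 under all 7.

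The rest of the pathway was read from 5 lists of 120 other genes, of which 69 were measured with 122 sequences. None passed the adjusted threshold by limma or by the methods' t-test, 34 (27.9%, beside 24.6% of all sequences) had an unadjusted p under 0.05 by limma, and 7 (5.74%) an unadjusted p under 0.01, 2 of them higher and 5 lower in cold, beside 8.59% of all sequences. The groups did not overlap for 3 of the 122 (2.46%, beside 5.1% of all). The median log2 difference was -0.04. Leaving out 1 array changed the count at 0.01 to as few as 2 without cold replicate 3 (4.83% of all sequences) and as many as 16 without cold replicate 2 (12.8% of all). It was 4 without control replicate 1 or 2 (5.43% and 5.72% of all) and 12 without control replicate 5 (12.6% of all).

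Among the targets of metabolism and stress, DRAM1, a lysosomal membrane protein that promotes autophagy downstream of p53, had the lowest p of the pathway. It measured -0.29 to 0.04 in control (median -0.10) and 0.34, 0.64, 0.40 and 0.78 in cold, with no overlap. The log2 difference was 0.64 (SE 0.10, fold 1.55), with an unadjusted p of 7.12e-05 and an adjusted p of 0.0569 by limma. This adjusted p was the lowest in the series and was shared by 110 sequences. The exact permutation p was 0.00476, the smallest that 210 splits can give. Under median centring it was 0.10 (adjusted p 0.842), or 0.54 relative to the median of all sequences, and the deposited values gave 0.50 (adjusted p 0.248). It passed the adjusted threshold in Cy3 alone (adjusted p 0.036 quantile normalized and 0.0313 scaled by the 75th percentile, by limma), with probes well above background on all 10 arrays (0.0454), and without control replicate 5 (0.0364) or cold replicate 2 (0.0304). In these 5 settings 919, 2495, 129, 586 and 1503 of all sequences passed as well. LPIN1, a phosphatidate phosphatase of lipid synthesis, was lower by the same unadjusted threshold in 2 of its 3 sequences, with log2 differences of -0.55 (SE 0.14, XM_004745812, adjusted p 0.0808) and -0.54 (SE 0.17, XM_004745814, adjusted p 0.114). In Cy3 alone, quantile normalized, both were -0.28 (adjusted p 0.0811 and 0.0951). In this list 12 of 24 sequences were higher and 12 lower, with a median of -0.01. Under median centring 2 were higher and 22 lower, beside 77.9% of all sequences lower.

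For the arrest and repair targets the median log2 difference was -0.09, and 17 of 23 sequences had values below 0, beside 52.5% of all sequences. In Cy3 alone scaled by the 75th percentile it was 12 of 23 (66.9% of all). The 3 at unadjusted p under 0.01 (13% of the list, beside 8.59% of all) were of 2 genes, both sequences of XPC, the damage sensor of nucleotide excision repair, and PHLDA3, an inhibitor of AKT. XPC XM_004738599 measured -0.04 to 0.31 in control and -0.33, -0.06, -0.34 and -0.17 in cold, without overlap, a log2 difference of -0.37 (SE 0.10, adjusted p 0.0876 by limma, exact permutation p 0.00952). XPC XM_004738600 gave -0.37 (SE 0.10, adjusted p 0.0925), and PHLDA3 gave -0.50 (SE 0.16, adjusted p 0.115). The deposited table gave larger differences, -0.76 and -0.80 for XPC (adjusted p 0.225 for both) and -0.84 for PHLDA3 (adjusted p 0.241). In Cy3 alone, quantile normalized, XPC measured -0.44 and -0.46 (adjusted p 0.0515 and 0.041) and PHLDA3 -0.23 (adjusted p 0.246). With Cy3 scaled by the 75th percentile both XPC and both LPIN1 sequences passed the adjusted threshold (adjusted p 0.0418 to 0.0458 by limma). Both XPC sequences also passed it without cold replicate 2 (0.0494 and 0.0487), and LPIN1 XM_004745812 without control replicate 5 (0.0403) or cold replicate 2 (0.0429).

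Of the 15 sequences of 9 apoptosis targets, 14 had values above 0, beside 47.5% of all sequences, with a median log2 difference of 0.20, and none passed the adjusted threshold. APAF1 filled 4 of the 15 and BCL2L11 3. The signs depended on how the values were formed, with 7 of 15 above 0 for the scanner software's intensities (37.8% of all sequences), 2 under median centring (22.1% of all) and 9 in the deposited table (49.8% of all). The 1 at unadjusted p under 0.01 (6.67%, beside 8.59% of all) was a sequence of BCL2L11 (XM_004770965), which encodes the BH3-only protein BIM, with a log2 difference of 0.35 (SE 0.11, adjusted p 0.11 by limma). It was -0.38 under median centring and 0.0084 in the deposited table. No sequence of the p53 family and regulators (15 of 23 lower, median -0.11) or of DNA damage signalling (21 of 37 lower, median -0.03) reached unadjusted p under 0.01. Of all sequences 52.5% were lower. Under median centring 18 of 23 and 36 of 37 were lower (77.9% of all), and with the scanner software's intensities 16 and 28 (62.2% of all). In Cy3 alone, quantile normalized, it was 15 and 16 (56.9% of all).

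**Figure D5:**
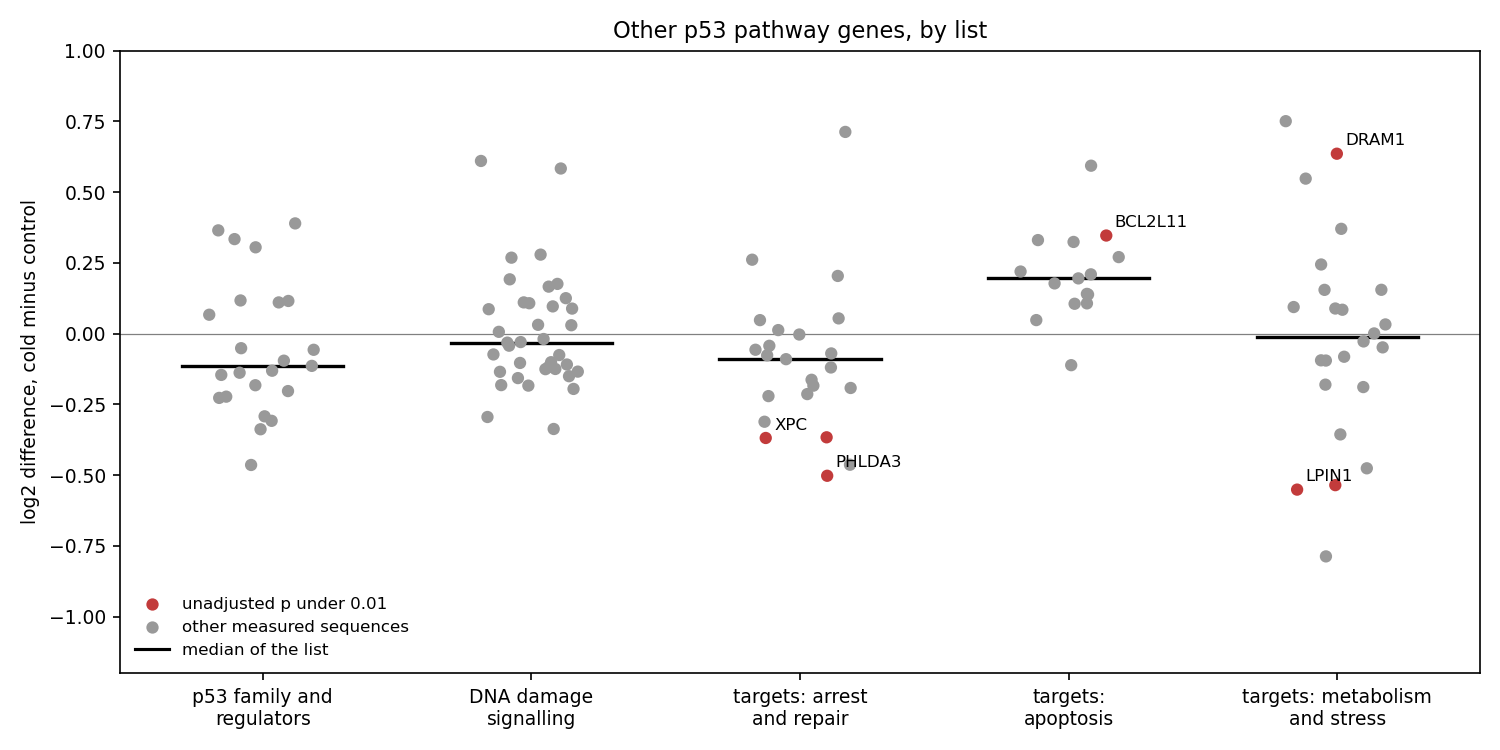
Log2 difference of cold minus control for the measured sequences of 5 lists of other p53 pathway genes (points; red where unadjusted p was under 0.01; line, median of the list). DRAM1 and BCL2L11 lay above 0, and XPC, PHLDA3 and LPIN1 below, among 7 red points of 122.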

How the data were processed

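PBMC RNA of 6 control and 4 cold ferrets was hybridised to 10 2-colour arrays of a custom Agilent design, each ferret on its own slide. The arrays held 416280 spots of 181312 probes, 4 for each of 45328 target sequences. The authors deposited spot intensities of both channels with flags from Feature Extraction 10.7.3.1, not normalized between arrays, and a log2 table with 1 value for every target sequence on every array. Set against the intensities, the deposited log2 table ran as Cy3 over Cy5 (r of the deviations within a sequence 0.93 to 0.97 per array). Its array medians were 9.25 to 9.29, and the step that set this level is not given in the sources used here.

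Median intensities were background-corrected with the normexp method of limma 3.58.1 (offset 50; R 4.3.3). Control spots were dropped, and log2 ratios of Cy3 to Cy5 were normalized by loess (span 0.3, 4 iterations). Outlier-flagged spots were left out, and spots were averaged to probes and probes to target sequences. The 111051 probes retained had, on 4 or more arrays, a share of 0.5 or more of their spots flagged as well above background in Cy3. Of the sequences, 4 with a missing value were left out, leaving 32400. Accessions named 21104 of the 45328 sequences through RefSeq genes of ASM1176430v1.1, and no coordinates or sequences are given.

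Groups were compared by limma (lmFit, eBayes) with Benjamini-Hochberg adjustment, checked on simulated data, and single values by an exact two-sided permutation test over 210 splits (smallest p 0.00476). The precision is limited by the number of arrays. The members and lists were chosen with earlier results of these data known. Named beside the members were up to 4 sequences per pathway list with unadjusted p under 0.01 and the 5 genes most correlated with MDM4. Some genes enter the counts and are not reported here by name. Alternatives covered background, dye normalization, Cy3 alone, the deposited table, the dim-probe filter, the probe summary, genes as features, the methods' t-test, position and replicate blocks, and each array left out. Added after seeing the data were Cy3 alone scaled by the 75th percentile, also with each array left out, and the deposited table under the methods' t-test.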

Additional observations from a re-analysis of the deposited data

Results flagged for a closer look

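In the cold group, cold replicate 1 stood apart from the other cold arrays for both CDKN1A sequences. For XM_004740043 it was at -0.08 and the others at 1.14 to 1.29, a gap of 0.895 of the group's whole range. For XM_004740046 it was at -0.01 and the others at 1.11 to 1.22, a gap of 0.914 of the range. Cold replicate 3 had the lowest average of the T cell list, -0.68 against 0.09 to 0.18 on the other cold arrays, a gap of 0.895 of the range. Each of these exceeds the 95% limit of Dixon's test for 4 samples. Of 50 groups tested, 3 were singled out, and chance singles out about 1 in 20.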

How the results depend on the processing

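Of the members, 0 passed the adjusted threshold under 13 of 14 alternatives and with each array left out (0 to 0). Cy3 alone scaled to the 75th percentile, added later, gave 2. At unadjusted p under 0.01 the main count of 0 became 1 under median centring (MDM4) and 2 under that Cy3 scaling, and 0 to 2 with 1 array left out. The pathway count of 7 of 122 (8.59% of all sequences passing) was 11 with Cy3 alone quantile normalized (9.92% of all), 11 of 143 without a filter on dim probes (6.91%), 11 of 114 with Cy3 well above background on all arrays (9.32%), 4 of 69 genes (8.64%), 19 with Cy3 scaled to the 75th percentile (15.6%), 4 for the deposited table under the methods' t-test (3.21%), and 2 to 16 with 1 array left out (4.83 to 12.8%). The replicate numbers shared by the groups did not pair the arrays (correlations of same-numbered deviations -0.29 to 0.55, and 3 of 8 arrays correlated best with their own number). With the replicate block 0 members passed either threshold, 10 pathway sequences had unadjusted p under 0.01 and MDM4 differed by -0.06.

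The sign of some log2 differences turned. Under median centring these were MDM2 XM_004752456 (-0.51), CDKN1A (-0.042 and -0.090), GADD45A (-0.52) and BCL2L11 (-0.38), while relative to the median of all sequences (-0.43) they were -0.078, 0.39 and 0.34, -0.083 and 0.048. The scanner software's intensities turned MDM2 XM_004752456 (-0.093) and TP53INP1 (0.030). Relative to the median of all sequences there (-0.11), these were 0.012 and 0.14, so that MDM2 kept its sign. Values without background subtraction turned TP53INP1 (0.0029). Cy3 alone turned MDM2 XM_004752457 (0.070 quantile normalized, 0.038 scaled) and TP53INP1 (0.070 and 0.097). The scaled version also turned MDM2 XM_004752456 (-0.015), which was 0.12 relative to the median of all sequences (-0.14). The deposited table, under either test, turned MDM2 XM_004752456 (-0.12), GADD45A (-0.025) and ATM (0.11). MDM2 XM_004752456 also turned with the median over probes (-0.0059), genes as features (-0.055) and position as a block (-0.00057), and ATM with the median over probes (0.043). With 1 array left out, MDM2 XM_004752456 ranged from -0.013 to 0.041, TP53INP1 from -0.18 to 0.077 and ATM from -0.076 to 0.048. The causes were not tested. MDM4, DRAM1, PHLDA3, both sequences of SESN1 and of XPC, and LPIN1 XM_004745812 and XM_004745814 kept their direction under all 14 alternatives and with each array left out.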
